A study of Mus musculus with 12 samples.

Results

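The P2X and P2Y receptors are the cell-surface receptors for extracellular nucleotides, and 10 of their genes were examined in mouse hippocampus: the 7 P2X genes P2rx1 to P2rx7 and the 3 P2Y genes P2ry1, P2ry6 and P2ry12. Members were taken as every transcript cluster, a set of array probes along 1 transcript, that the platform annotation pairs with only that gene. This gave 11 clusters of 21789 single-gene clusters and of 23410 clusters with any gene, because P2rx3 has 2 and each other gene has 1. Total RNA came from macrodissected hippocampus of 6 mice of the Madison (MSN) line, bred from ICR and described as manic, and of 6 mice of the hsd:ICR (ICR) line, its outbred ancestor, described as behaviorally normal. All 12 were adult males without any treatment in the labels, each a separate animal on its own array. MSN is a single, highly inbred line, so effects of its selection and of other differences between the lines cannot be told apart. The study cautions that sequence changes where probes bind may affect the values of some genes, which was not tested here. Arrays of a strain correlated at 0.992 to 0.997 over clusters and arrays of different strains at 0.992 to 0.996. P2rx2, P2rx4 and P2rx7 lie on chromosome 5, P2rx1 and P2rx5 on 11, P2rx3 on 2, P2rx6 on 16, P2ry1 and P2ry12 on 3 and P2ry6 on 7.

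P2X receptors are ATP-gated cation channels built from 3 subunits, and P2Y receptors are G protein-coupled receptors for ATP, ADP or uracil nucleotides. In brain, ATP is released from neurons and glia, acts on both families, and is then broken down by ectonucleotidases to adenosine, which has its own receptors. P2X7 needs high ATP, has a long intracellular tail and is known for activating the NLRP3 inflammasome in microglia, and P2Y12 guides the processes of resting microglia toward ATP sources.

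Of the 11 receptor clusters, 1 was lower in MSN hippocampus, that of P2rx7, and 10 did not pass the test (limma, adjusted p under 0.05 over all 23410 clusters with a gene). Across all clusters 0.777% were called, 0.474% lower and 0.303% higher in MSN mice. Of the 11 clusters, 6 had a log2 fold change below 0 and 5 above it. Their median was -0.02 on the log2(intensity + 16) scale, against -0.0079 over all clusters tested, and the median absolute log2 fold change was 0.0899 against 0.0473. An unadjusted p under 0.05 was reached by 3 clusters, or 27.3%, against 12.7% of all clusters. A log2 fold change here is MSN over ICR and understates the change of dim genes. The clusters of P2rx1, P2rx2 and P2rx3 read 117 to 172 over all mice, below the array medians of 373 to 389. Whether they hold signal above background was not tested, nor was it for dim genes of the lists such as Nlrp3.

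P2rx7 and P2rx4 are next to each other on chromosome 5 in the RefSeq gene order, and their upstream sequences are shown because only the former was called. The sequences are the 250 bases before the annotated start, from RefSeq on GRCm38.p6, plus strand, and 6 of the 10 receptor genes have such an entry. Capitals mark GGGCGG or its reverse complement CCGCCC, the GC box letters, which occur in 32.7% of 32851 windows of this length. P2rx7 has 2 annotated starts, which cannot be told apart by the single intensity of its cluster.
P2rx7, first start, chr5:122643677-122643926: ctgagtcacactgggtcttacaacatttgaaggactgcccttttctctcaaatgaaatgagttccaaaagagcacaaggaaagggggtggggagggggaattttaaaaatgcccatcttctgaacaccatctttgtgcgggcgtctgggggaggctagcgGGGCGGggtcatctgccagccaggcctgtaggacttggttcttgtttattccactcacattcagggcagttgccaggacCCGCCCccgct
P2rx7, second start, chr5:122650133-122650382: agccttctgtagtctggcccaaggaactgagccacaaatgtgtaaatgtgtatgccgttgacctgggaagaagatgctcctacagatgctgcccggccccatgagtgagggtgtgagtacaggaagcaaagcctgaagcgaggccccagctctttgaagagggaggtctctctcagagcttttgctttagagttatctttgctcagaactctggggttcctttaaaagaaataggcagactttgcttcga
P2rx4, chr5:122707294-122707543: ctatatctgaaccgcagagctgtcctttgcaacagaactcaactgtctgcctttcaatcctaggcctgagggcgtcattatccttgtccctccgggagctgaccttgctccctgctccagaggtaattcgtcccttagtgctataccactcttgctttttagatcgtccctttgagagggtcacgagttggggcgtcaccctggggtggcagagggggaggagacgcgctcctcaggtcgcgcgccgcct
The letters occur 2 times before the first P2rx7 start, 0 times before the second and 0 times before P2rx4. The GC content of these windows is 53.6%, 50.0% and 57.2%. Among the other receptor genes with an entry, none of them called, the letters occur 2 times before P2ry1 and 1 time before P2rx6. Before P2rx1 and P2ry12 they occur 0 times. A match is a description of letters and was not tied to the expression values.

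P2rx7, the receptor of this family with the lowest P-value, was lower in every MSN mouse than in any ICR mouse. Its intensity was lowest at 328, had a median of 359 and reached 382 in the 6 MSN mice. In the 6 ICR mice it was lowest at 390, had a median of 410 and reached 422. The groups did not overlap, and 8.35 intensity units lay between the highest MSN mouse, replicate 1, and the lowest ICR mouse, also replicate 1. That gap was 2.18% of the mean intensity, on arrays whose medians ranged from 373 to 389. Whether the groups stay apart after rescaling of the arrays was not tested. The other 5 MSN mice lay at 361 or below. Of all clusters 1.44% separated the strains in this way, and of the 11 receptor clusters 1 did. The log2 fold change was -0.19 (standard error 0.0371, 95% interval -0.27 to -0.11, limma, adjusted p = 0.0310), a ratio of 0.877 with an interval of 0.830 to 0.927. P2rx7 was also picked by the study on these arrays for RT-qPCR, so this call is no independent evidence. That RT-qPCR, on the array mice and further mice of both strains, was reported as lower in MSN mice too. The call ended without MSN replicate 2, 3, 4 or 5 or ICR replicate 2, 4, 5 or 6 (limma, adjusted p = 0.0525 to 0.0755), and with quantile normalization (limma, adjusted p = 0.0579), with scaling to the same median of all clusters (limma, adjusted p = 0.115) and when all clusters were tested (limma, adjusted p = 0.0529).

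**Figure D1:**
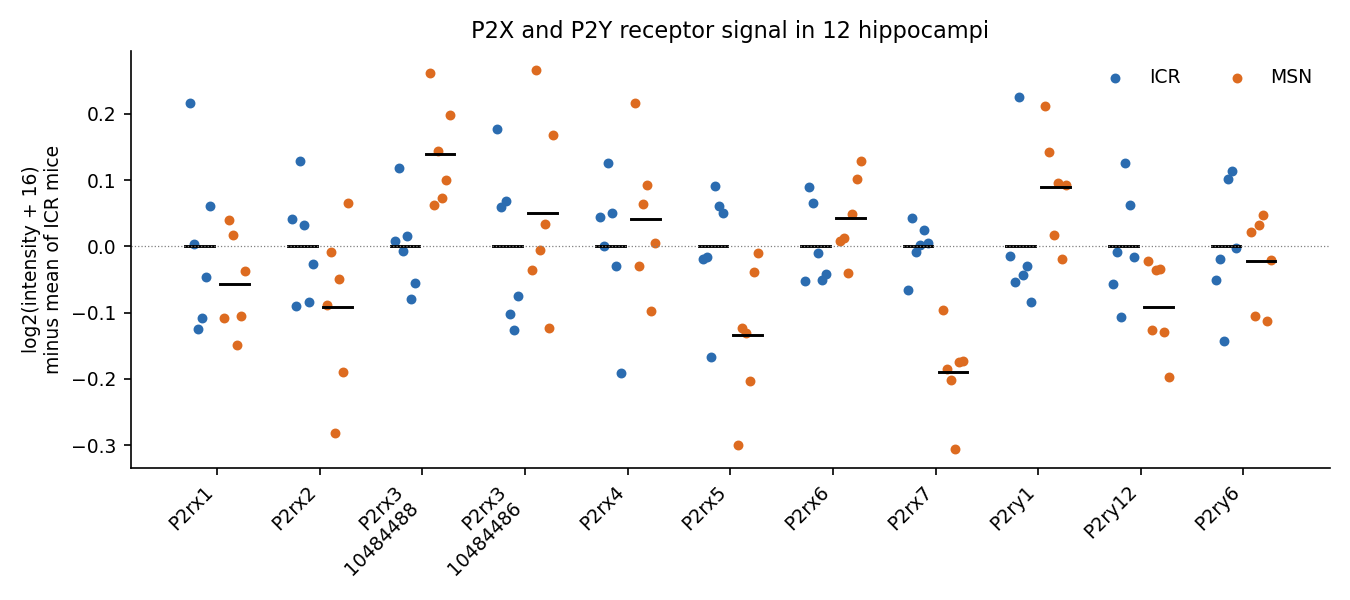
Signal of the 11 receptor clusters in each mouse, on the log2(intensity + 16) scale relative to the ICR mean (y axis), with ICR in blue, MSN in orange and black lines at the strain means. P2rx3 appears once for each of its 2 clusters. In P2rx7 no MSN point reaches an ICR point, and in the other 10 clusters the strains overlap.

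P2rx4, an ATP-gated channel of microglia and neurons and a close relative of P2X7, did not pass. Its intensity ran from 432 through a median of 475 to 541 in MSN mice and from 404 through a median of 471 to 507 in ICR mice. The ICR range overlapped all but 1 of the MSN mice, and the log2 fold change was 0.04 (95% interval -0.08 to 0.17, limma, adjusted p = 0.812). The interval does not contain the P2rx7 value. Within each array the log2 signal of P2rx7 minus that of P2rx4 ran from -0.57 to -0.25 in MSN and from -0.31 to 0.02 in ICR mice, with overlap. P2rx7 minus the mean of the other 9 receptor genes, P2rx3 by its brighter cluster, ran from 0.27 to 0.45 in MSN and from 0.49 to 0.61 in ICR mice. Both are descriptions chosen after the values had been seen, and the latter restates the separation of P2rx7 itself.

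P2rx3, best known as the ATP-gated channel of sensory neurons, had 2 clusters, each with overlapping strains. The brighter ran from 135 through 141 to 157 in MSN mice and from 121 through 129 to 141 in ICR mice, so that 3 MSN mice lay above all ICR mice. Its log2 fold change was 0.14 (95% interval 0.04 to 0.23, limma, adjusted p = 0.188). The dimmer ran from 117 through 130 to 158 against 117 through 128 to 148, and its log2 fold change was 0.05 (95% interval -0.10 to 0.20, limma, adjusted p = 0.805). Both clusters lay above 0, and neither passed.

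P2rx5, a subunit of low channel activity in many tissues, ran from 179 through 204 to 223 in MSN mice and from 198 through 227 to 240 in ICR mice. Among the MSN mice 2 lay below all ICR mice. The log2 fold change was -0.13 (95% interval -0.25 to -0.02, limma, adjusted p = 0.320).
P2rx1, the channel of smooth muscle and platelets, ran from 130 to 150 in MSN and from 132 to 172 in ICR mice (log2 fold change -0.06, 95% interval -0.18 to 0.07). P2rx2, which forms mixed channels with P2X3, ran from 122 to 160 and from 142 to 168 (log2 fold change -0.09, 95% interval -0.22 to 0.03). P2rx6, which forms few channels on its own, ran from 241 to 272 and from 238 to 265 (log2 fold change 0.04, 95% interval -0.04 to 0.13). The strains overlapped in all 3 genes, and their adjusted p lay between 0.549 and 0.726 from limma.

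**Figure D2:**
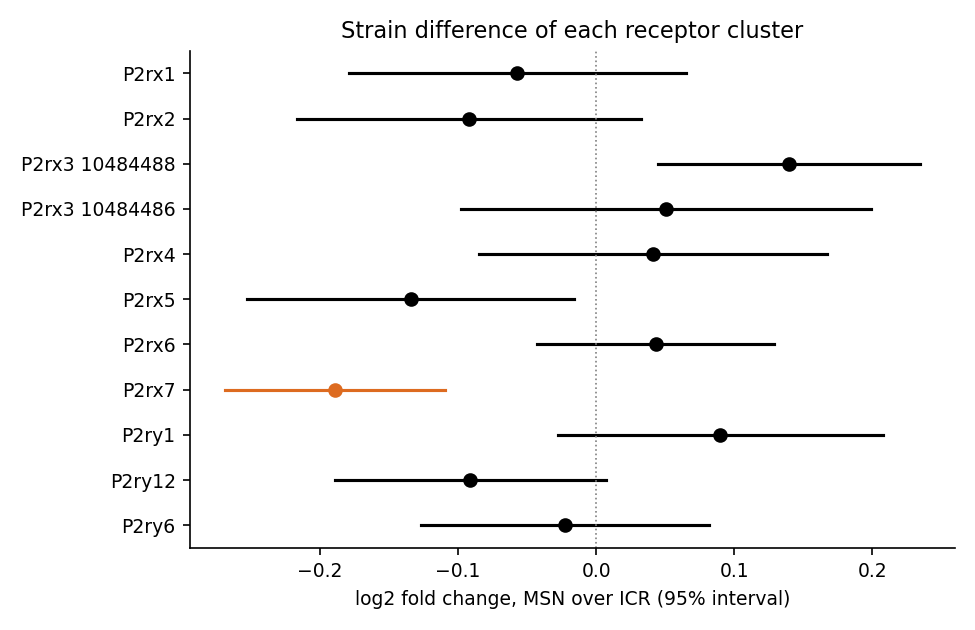
Log2 fold change of MSN over ICR for the 11 receptor clusters (x axis), with 95% intervals from limma as lines. The called cluster, P2rx7, is orange at -0.19, and the intervals of P2rx5 and of the brighter P2rx3 cluster also leave out 0 although they did not pass after adjustment.

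The 3 P2Y genes did not pass the test. P2ry12, the ADP receptor that marks resting microglia, ran from 943 through 1024 to 1067 in MSN mice and from 1005 through 1074 to 1183 in ICR mice. Of the MSN mice 3 lay below all ICR mice, and the log2 fold change was -0.09 (95% interval -0.19 to 0.01, limma, adjusted p = 0.430). P2ry1, an ADP receptor of astrocytes and neurons, ran from 279 through 303 to 330 against 266 through 275 to 333, with ICR replicate 3 apart at the top of its strain. Its log2 fold change was 0.09 (95% interval -0.03 to 0.21, limma, adjusted p = 0.537), and 0.14 without that mouse (limma, adjusted p = 0.171). P2ry6, the UDP receptor linked to phagocytosis by microglia, ran from 295 through 321 to 331 against 288 through 318 to 348 with a log2 fold change of -0.02 that turned positive with quantile normalization and with scaling to the same median of all clusters (95% interval -0.13 to 0.08, limma, adjusted p = 0.886). For the 10 clusters that did not pass, the intervals together reached from -0.25 to 0.23.

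Over the 12 mice with strain means subtracted, P2ry6 and P2ry12 had the highest correlation of any pair of receptor genes. After subtracting strain means, Pearson's r over the 12 mice was 0.83 (p = 0.00294 by permutation within strains, adjusted p = 0.132 over the 45 pairs) and Spearman's rho was 0.81 (permutation p = 0.00531, adjusted p = 0.205). The relation did not pass the adjustment. Without the 2 mice farthest from the median of P2ry6 r was 0.78, and r was 0.65 in the 6 MSN mice and 0.95 in the 6 ICR mice. In the MSN mice alone other pairs had a higher r, among them P2rx4 and P2ry6 at 0.81. With quantile normalization r was 0.85. P2rx7 and P2rx4, neighbors in the genome, had an r of 0.02 and a rho of -0.24. No pair of the 45 passed, and 5 had an unadjusted p under 0.05 by permutation. The points share an array scale for both genes.

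**Figure D3:**
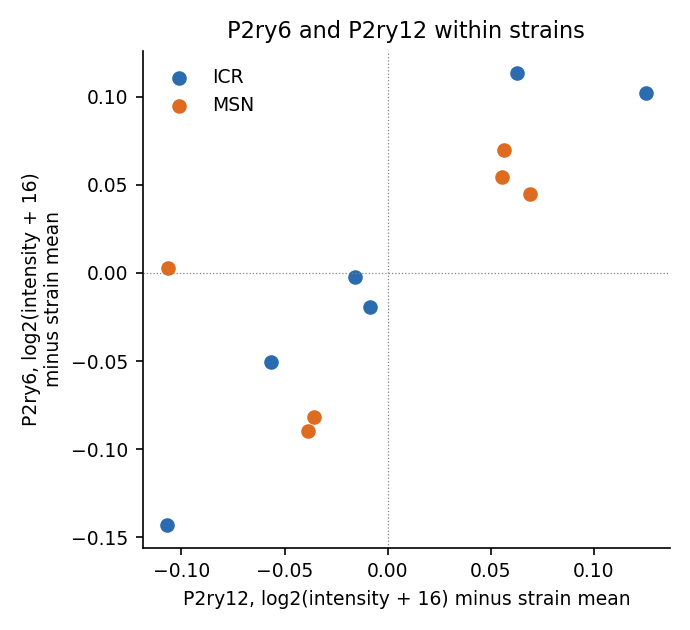
P2ry12 (x axis) and P2ry6 (y axis) in 12 hippocampi, each as log2(intensity + 16) minus the mean of its strain, blue for ICR and orange for MSN. Points run from the lower left to the upper right in both strains, with an r of 0.65 in MSN and 0.95 in ICR mice.

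Levels of microglial, oligodendrocyte and astrocyte markers were set against the receptors, since fewer cells of a type and less RNA per cell cannot be told apart in whole tissue. Of the 30 relations between a receptor gene and the mean log2 level of 1 marker list within strains, none passed adjustment, and 3 had an unadjusted p under 0.05 (permutation within strains, 12 mice). P2ry12 against the microglial markers gave the values furthest above 0 for that list (r = 0.64, permutation p = 0.0367, adjusted p = 0.429, rho = 0.45, permutation p = 0.160, adjusted p = 0.623). Its r was 0.67 in MSN and 0.61 in ICR mice, and 0.25 without the 2 mice farthest in marker level. Leaving those mice out also narrows the range of the markers, so the lower r cannot show that the relation rested on them. P2ry1 had its highest r with oligodendrocyte markers (r = 0.64, permutation p = 0.0251, adjusted p = 0.429, rho = 0.50, permutation p = 0.118, adjusted p = 0.623, and r = 0.55 without the 2 farthest mice). P2rx2 had a negative r with microglial markers (r = -0.61, permutation p = 0.0473, adjusted p = 0.429, rho = -0.54, permutation p = 0.105, adjusted p = 0.623), with r = -0.25 without the 2 farthest mice. P2rx7 had an r of 0.17 with microglial, 0.37 with oligodendrocyte and 0.02 with astrocyte markers (permutation p = 0.649, 0.287 and 0.963, adjusted p = 0.778, 0.556 and 0.963), and a rho of 0.11, 0.28 and 0.03 (permutation p = 0.750, 0.399 and 0.941, adjusted p = 0.938, 0.714 and 0.941).

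Between strains, 1 marker gene of the lists was called, and 1 list had a summed intensity without overlap, that of astrocytes. For comparison, 12.7% of all clusters had an unadjusted p under 0.05 and 54.5% a log2 fold change below 0. Of 13 measured microglial markers 0 were called and 4 reached an unadjusted p below 0.05. Among these markers 8 lay above 0 and 5 below it. Their summed intensity ranged from 7395 to 8892 in MSN and from 6899 to 8292 in ICR mice. Fcrls, a microglial Fc receptor-like gene, had a log2 fold change of -0.56 (limma, adjusted p = 0.0574) and Tyrobp, the signaling adaptor of Trem2, 0.20 (limma, adjusted p = 0.139). Of 10 astrocyte markers 0 were called and 4 had an unadjusted p under 0.05, but their summed intensity was 25421 to 27756 in MSN mice and 27843 to 29303 in ICR mice, without overlap. Gfap, the astrocyte filament protein, had a log2 fold change of -0.30 (limma, adjusted p = 0.101) and the water channel Aqp4 -0.23 (limma, adjusted p = 0.148). The other 2 with an unadjusted p under 0.05, named after their values were seen, lay on opposite sides of 0, Slc1a2, a glutamate transporter, at -0.11 and Aldh1l1, a folate enzyme, at 0.19 (limma, adjusted p = 0.196 and 0.187). Of the 10 markers 4 lay above 0 and 6 below it, and the sum is weighted toward bright clusters such as that of Slc1a2. The arrays, with medians of 373 to 389, were not rescaled for the sums. How often such a sum separates the strains over other sets of clusters was not tested. Their part in the P2rx7 difference between strains was not tested. Of 9 markers of oligodendrocyte precursors Pdgfra, their growth factor receptor, was higher at 0.26 (limma, adjusted p = 0.0184) and 8 were not called, and their summed intensity was 7112 to 7653 in MSN and 6644 to 7207 in ICR mice. All 9 lay above 0, with a median log2 fold change of 0.08. Of 9 markers of mature oligodendrocytes 0 were called and 3 had an unadjusted p under 0.05, Mbp and Ugt8a with the lowest values (log2 fold changes 0.09 and 0.14). Of these 9 markers 8 lay above 0 and 1 below it, with a median log2 fold change of 0.06. Their summed intensity was 24344 to 28126 in MSN and 23540 to 26569 in ICR mice.
Hippocampal neuron markers were present in every array, with Neurod6 at 2223 to 3010 over both strains and a summed intensity of 25501 to 28005 against 23066 to 27646, and 0 of 9 were called. Of these markers 8 lay above 0 and 1 below it, with a median log2 fold change of 0.115, and 3 had an unadjusted p under 0.05. Lct and Neurod6 had log2 fold changes of 0.29 and 0.15 (limma, adjusted p = 0.220 and 0.285). Of 8 choroid plexus markers 0 were called and 0 had an unadjusted p under 0.05, and the summed intensity spread from 9446 to 22560 in MSN and from 7871 to 22524 in ICR mice. All 8 lay above 0, with a median log2 fold change of 0.29. Kcnj13 and Ttr, with the lowest P-values, were at 0.82 and 0.34 (limma, adjusted p = 0.434 and 0.546). The endothelial list (8 measured) and the striatal list (6 measured) also held 0 called genes, with 1 and 0 at an unadjusted p under 0.05, led by Slco1a4 and Flt1 (log2 fold changes -0.17 and 0.13) and by Ppp1r1b and Pde10a (0.11 and -0.07).

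The rest of the nucleotide signaling pathway held no called gene in the lists measured (limma, adjusted p under 0.05). Of the 7 other P2Y and related receptors, among them P2ry13, another ADP receptor of microglia, at a log2 fold change of 0.05 and named for its role, 0 were called and 1 had an unadjusted p under 0.05. That was P2ry4, a receptor for UTP, which ran from 177 through 198 to 202 in MSN and from 195 through 212 to 235 in ICR mice (log2 fold change -0.12, limma, adjusted p = 0.298). P2ry14, the UDP-sugar receptor, was at -0.07 (limma, adjusted p = 0.672).
The ectonucleotidase list took in the whole Entpd family, Entpd1 to Entpd8, without regard to whether an enzyme acts outside the cell. Of its 11 measured genes 0 were called and 5 had an unadjusted p under 0.05, which 12.7% of all clusters reached. Entpd1, the CD39 enzyme that turns ATP and ADP into AMP, read 646 ± 58.0 (SD, n = 6) in MSN mice against 578 ± 32.2 (SD, n = 6) in ICR mice. Its difference was 0.15 on the log2 scale (limma, adjusted p = 0.275). Entpd7 was at 0.10 (limma, adjusted p = 0.295). The other 3 with an unadjusted p under 0.05, named after their values were seen, were Entpd2 at -0.19, Entpd6 at 0.11 and Alpl at 0.13 (limma, adjusted p = 0.337, 0.295 and 0.316). Of the 11 genes 6 lay above 0 and 5 below it. The strains separated in 1, Entpd6, against 1.44% of all clusters. Its lowest MSN mouse read 1341 and its highest ICR mouse 1339.
Of 9 genes for release and vesicular loading of ATP 0 were called and 2 had an unadjusted p under 0.05. Panx2, a pannexin of neurons, came closest in the pathway, from 1379 through 1507 to 1568 in MSN and from 1221 through 1309 to 1403 in ICR mice. The strains overlapped, and its log2 fold change was 0.20 (standard error 0.0444, limma, adjusted p = 0.0574). Panx3 was at 0.12 (limma, adjusted p = 0.279), and Slc17a9, the vesicular nucleotide transporter named for its role, at -0.02 (limma, adjusted p = 0.883).
Adenosine handling genes (6 measured), P2X7 inflammasome effectors (10 measured) and P2Y G proteins and effectors (11 measured) held 0 called genes and 0 at an unadjusted p under 0.05. Their median log2 fold changes were -0.02, 0.01 and 0.01. Slc29a4 and Slc29a3, nucleoside transporters, were at 0.13 and -0.03. Il18, an interleukin processed by the inflammasome, was at -0.06, Il1rn, the natural antagonist of the interleukin-1 receptor, at -0.06, and Nlrp3, named for its role, at -0.06 (limma, adjusted p = 0.576, 0.660 and 0.737). Gnaq, the G protein alpha subunit downstream of P2Y1, was at -0.10 and Plcb2, a phospholipase C, at 0.10 (limma, adjusted p = 0.423 and 0.502). The adenosine receptor genes were not analysed here.

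Around P2rx7 on chromosome 5, 0 of the 10 genes on each side were called. Of these 20 genes 5 had an unadjusted p under 0.05, against 12.7% of all clusters, and all 5 were lower in MSN mice. Of the 20, 12 lay below 0 and 8 above it, with a median log2 fold change of -0.03. Tmem120b, a membrane protein gene, had a mean of 599 ± 18.5 (SD, n = 6) in MSN mice against 671 ± 25.6 (SD, n = 6) in ICR mice. The difference was -0.16 on the log2 scale (limma, adjusted p = 0.0527), and its strains did not overlap. Rad9b, a paralog of the checkpoint gene Rad9a, read 252 ± 20.1 against 298 ± 23.8, a log2 fold change of -0.23 (limma, adjusted p = 0.0983), and Tctn1, a gene of the ciliary transition zone, was at -0.14 (limma, adjusted p = 0.120). The strains separated in 3 of the 20, against 1.44% of all clusters, and the other 2 of them, Rnf34 and A930024E05Rik, were named after their values were seen. Between P2rx7 and Rnf34 lie P2rx4, Camkk2 and Anapc5, all with overlapping strains.

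**Figure D4:**
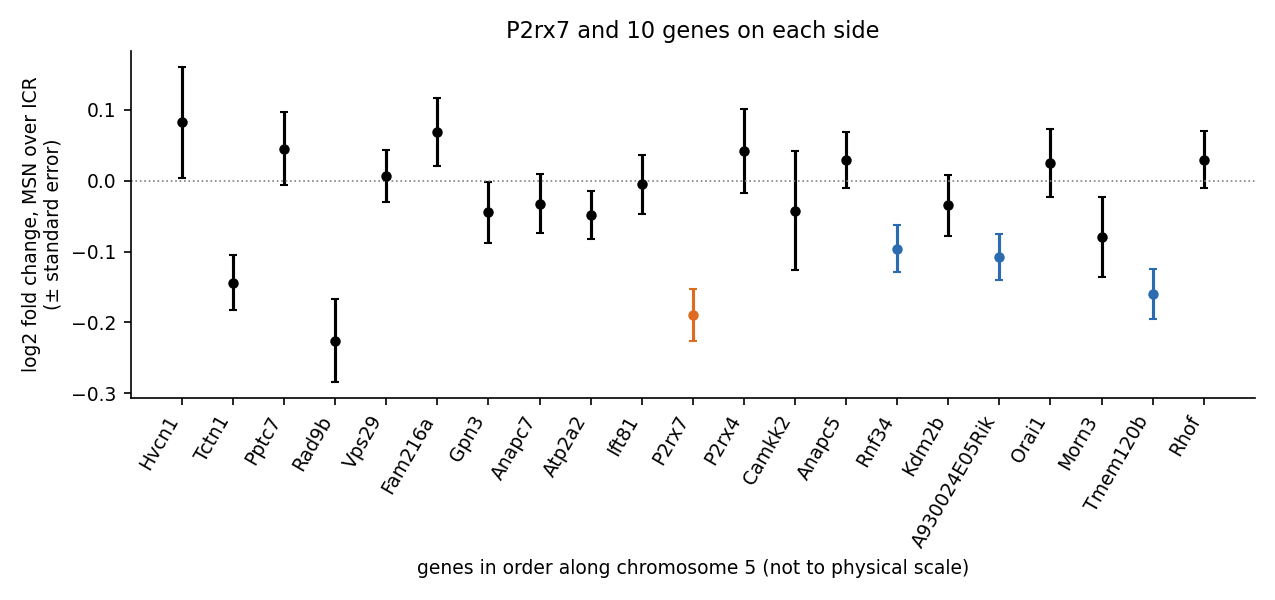
Log2 fold change of MSN over ICR (y axis, ± standard error from limma) for P2rx7 and the 10 measured genes on each side, in their order along chromosome 5 and not to physical scale. P2rx7 is orange, and blue marks the 3 neighbors in which the strains did not overlap.

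The clusters most like P2rx7 among mice of a strain were those of Syn3, a synapsin of synaptic vesicles, Ube2d1, a ubiquitin-conjugating enzyme, Wipf1, an actin regulator, Zfp938, a zinc finger gene, and Ampd2, which deaminates AMP. After subtracting strain means Pearson's r over the 12 mice was 0.85, 0.82, 0.81, 0.79 and 0.77, the highest of 10914 clusters above the median intensity. Within MSN mice r was 0.77 to 0.89 and within ICR mice 0.70 to 0.89 for these 5, which is a description of clusters chosen as the highest of many.

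**Figure D5:**
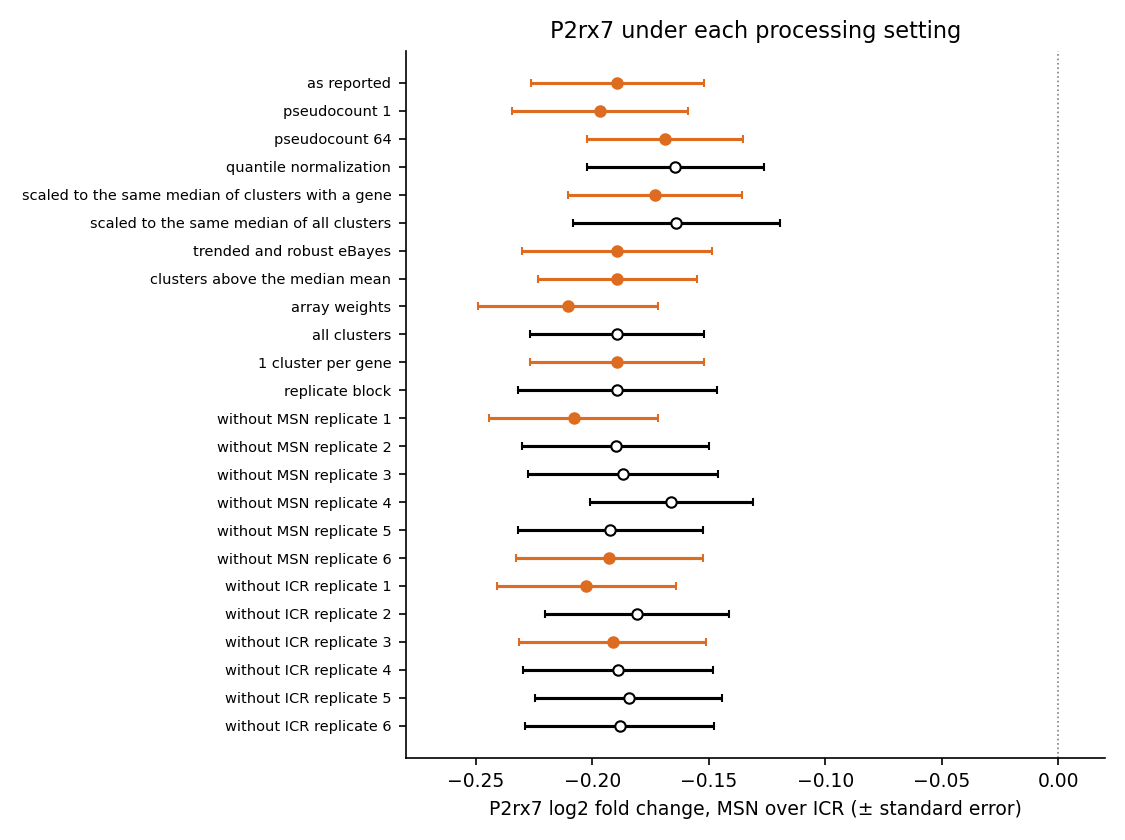
P2rx7 log2 fold change of MSN over ICR (x axis, ± standard error) as reported and under each other setting on the log2 scale. Orange filled points passed at an adjusted p under 0.05 and open black points did not, while all lie between -0.21 and -0.16.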

How the data were processed

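Total RNA of 12 hippocampi, 6 MSN and 6 ICR, was hybridized to Affymetrix Mouse Gene 1.0 ST arrays. The authors summarized probes with PLIER and a GC-bin background correction in Affymetrix Power Tools 1.12.0, and deposited 1 linear intensity per transcript cluster and array. Array medians over the 23410 clusters with a gene ranged from 373 to 389, and precision is limited by the number of arrays. No scan date or batch was given in the sources used here.

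After adding 16 and taking log2, limma 3.58.1 in R 4.3.3 was fitted with strain as its only term, with Benjamini-Hochberg adjustment over clusters with a gene. The fit was tested on simulated data with independent noise and changes larger than that of P2rx7, so that test does not bear on changes of its size. A gene of a list was read by its brightest single-gene cluster. Correlations were computed after subtracting strain means, with 100000 permutations within strains. Members and lists were chosen with earlier results of these data known. Named genes are the 10 receptors, in each list the called genes or else the 2 with the smallest P-values, the 3 such neighbors of P2rx7, and the 5 clusters most like it. Alternatives covered scale, pseudocount, normalization, variance model, filter, array weights, clusters tested, the replicate number as a block and each array left out. Promoters and gene order came from RefSeq on GRCm38.p6. Replicate numbers did not pair the mice.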

Additional observations from a re-analysis of the deposited data

Results flagged for a closer look

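In 6 of 102 groups of 6 mice, over 51 clusters of the receptors, the list genes chosen by rule or named for another reason, and neighbors of P2rx7, 1 mouse lay apart by Dixon's test at 95%, which chance gives in about 1 of 20 groups. Among the receptors this was P2ry1, in which ICR replicate 3 read 333 and the other 5 ICR mice 266 to 279. The same mouse read 1115 in Entpd6, with the others at 1276 to 1339, and 8766 in Slc1a2, with the others at 9017 to 9158. In Entpd7 MSN replicate 2 read 682, and the others 710 to 725. In Plcb2 ICR replicate 1 read 204, and the others 162 to 177. In Kcnj13, a choroid plexus channel, ICR replicate 2 read 4098, and the others 724 to 1947.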

How the results depend on the processing

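P2rx7 was lower in MSN mice in every setting tried, and its call held in 8 of 11 alternatives that leave replicate numbers aside. It ended with quantile normalization (log2 fold change -0.16, adjusted p = 0.0579 from limma), with scaling to the same median of all clusters, chosen after seeing the data (-0.16, adjusted p = 0.115), and with all clusters tested (-0.19, adjusted p = 0.0529), which left 0 called receptor clusters in each. Without each array in turn its log2 fold change was -0.21 to -0.17, its adjusted p 0.0257 to 0.0755, and the number of called receptor clusters 0 to 1, with 0 for 8 of 12 arrays. The other 10 receptor clusters were called in 0 of 221 such values, with a lowest adjusted p of 0.0981 from limma. P2ry6 turned to 0.0027 with quantile normalization and to 0.0024 with scaling to the same median of all clusters. The count of called clusters among all, 182, was 279 with a pseudocount of 64, 315 with array weights and 91 to 210 without each array, the cause of which was not tested. The share of these that were higher was 39.0%, 54.6% with quantile normalization, 54.1% with scaling to the same median of clusters with a gene and 56.4% with that of all clusters. The replicate block, for numbers that do not pair the mice (same-numbered deviations correlated at -0.13 to 0.13, and 3 of 12 mice correlated best with their own number), gave 42 called clusters, 0 receptor clusters and for P2rx7 -0.19 (adjusted p = 0.118 from limma). The relations to marker lists held 0 passing in each normalization.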
